A study of Mus musculus with 12 samples.

Results

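Macrophages (Mφ) of control hearts (Ct) were described from the RNA-seq libraries of 4 of the 12 mice of the series, which were chosen by their label alone, a pump filled with saline. The Ct mice were adult males of strain C57BL6/J. The study names 14 or 28 days for its pumps with isoproterenol or vehicle, but the time for each Ct mouse was not stated in the sources read. Hearts were digested with collagenase, leukocytes were enriched with magnetic beads against CD45, and live CD11b+ cells positive for CD14 and CD64 were sorted by FACS. The RNA of each sort was amplified with SMART-Seq v4, a kit for very low amounts of RNA, and each heart gave 1 library. The other 8 mice of the series received isoproterenol, a β-adrenergic agonist, for 14 or 28 days, and their libraries enter no value given here.

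Cardiac Mφ are a mixture of cells that settle in the heart before birth and renew locally, and cells that derive from blood monocytes. They depend on signals through the CSF1 receptor, engulf dying cells and debris, degrade them in lysosomes, recycle iron and lipids, present antigen on MHC class II and produce complement and chemokines. Immediate early genes are transcribed within minutes of many stimuli, and heat shock genes are transcribed when proteins misfold or cells are warmed.

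The files hold counts for 24445 gene symbols. Library totals were 100344796, 88466559, 101190984 and 98953135 counts in Ct 1 to 4, and levels are given as counts scaled to a common library total, CPM. At least 1 CPM in all 4 libraries was found for 10616 genes, and 12835 genes had a count in all of them. The number of genes with any count was 15122, 14489, 15054 and 15305 in Ct 1 to 4. Values are mean ± SD over n = 4 libraries unless stated otherwise, and no comparison between groups was tested because only 1 group is described. In the whole sorts, fewer cells of a type and less RNA per cell cannot be told apart.

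Ct 2 stood apart from the other libraries and is named first because it touches many values. Among 8632 genes with a mean of at least 10 CPM, 1276, 1641 and 1581 genes differed by more than 2-fold between Ct 2 and Ct 1, 3 and 4, or 14.8%, 19% and 18.3%. Pairs without Ct 2 differed for 305 genes (Ct 1 and 3), 157 genes (Ct 1 and 4) and 400 genes (Ct 3 and 4), or 1.82% to 4.63%. The codes in the titles begin alike for Ct 1 and 2 and for Ct 3 and 4, but the labels do not say what the code stands for, and Ct 1 was closest to Ct 4. No count in Ct 2 but at least 100 counts in each of the others was found for 127 genes, against 3, 7 and 3 genes for Ct 1, 3 and 4. The 3 most abundant of the 127 were Dgkq, a diacylglycerol kinase (22.3, 20.3 and 31.0 CPM in Ct 1, 3 and 4), D8Ertd82e (15, 16.5 and 22.7 CPM) and Dgcr8, a subunit of the microRNA-processing complex (16.0, 18.4 and 13.3 CPM).

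Deviations of Ct 2 moved with transcript length. For 351 genes with a longest transcript of up to 1000 bp, the median log2 difference between Ct 2 and the mean of the other libraries was 0.62 (log2(CPM + 0.5)), and for 2100 genes of 4001 to 6000 bp it was −0.26. Ct 4 moved the other way, with medians of −0.41 and 0.21 for the same genes. The trend did not continue in 1234 genes of 6001 bp or more, where the medians were −0.11 in Ct 2 and 0.20 in Ct 4. Medians of Ct 1 and Ct 3 lay between −0.16 and 0.07 in all length classes. Among genes of 2001 to 4000 bp alone, a subset chosen after these values were seen, 14.0% to 18.7% of genes still differed by more than 2-fold between Ct 2 and each other library, against 1.55% to 4.65% in the other pairs. The part of RNA quality or amplification in these deviations was not tested.

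**Figure D1:**
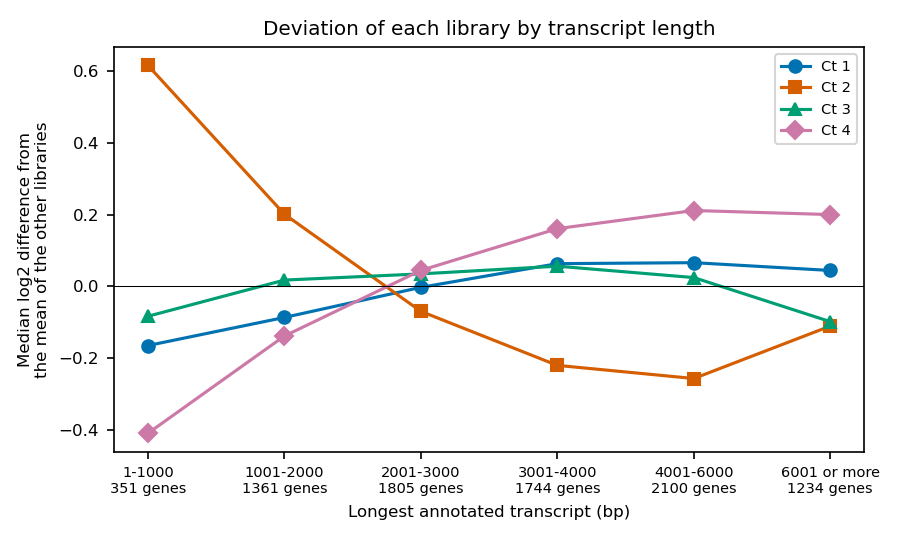
Median log2 difference of each Ct library from the mean of the other libraries (vertical axis, log2(CPM + 0.5)) for genes with a mean of at least 10 CPM, grouped by the longest annotated transcript in bp (horizontal axis). Ct 2 falls from 0.62 in the shortest group to −0.26 at 4001 to 6000 bp, and Ct 4 runs from −0.41 to 0.21. In the longest group, 6001 bp or more, Ct 2 is at −0.11 and Ct 4 at 0.20.

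The markers of the sort and of the lineage were read first. The cells were selected on CD45, CD11b, CD14 and CD64, so the genes of these antigens are no independent check of their identity. Csf1r, the receptor for CSF1 (chromosome 18, 61100598 to 61132149 of GRCm38), stood at 4582, 2546, 3933 and 5534 CPM in Ct 1 to 4, a mean of 4149 ± 1255 CPM, or 4683 ± 806 CPM without Ct 2. Cd14, a co-receptor for bacterial lipopolysaccharide (chromosome 18, 36725067 to 36726798), stood at 2709.9, 2528, 2875 and 1972 CPM, with Ct 4 lowest. Adgre1 encodes the F4/80 antigen (chromosome 17, 57358691 to 57483527) and reached 977, 853, 933 and 1416 CPM. In all 4 libraries these 3 genes were abundant, and Csf1r was lowest in Ct 2 and highest in Ct 4.

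Fcgr1, which encodes the sort antigen CD64 (chromosome 3, 96282909 to 96293969), was at 105, 113, 156 and 104 CPM, a mean of 119.6 ± 24.5 CPM. Cd74, the invariant chain of MHC class II (chromosome 18, 60803848 to 60812652), held 15690.3, 15589, 14047 and 16879 CPM. The libraries differed little for Cd74, whose SD was 7.47% of the mean, whereas Ct 3 was above the others for Fcgr1. Per length, Fcgr1 stood at 46.2 ± 9.46 CPM per kb of merged exon, Adgre1 at 323 ± 78.1 CPM per kb, Csf1r at 718 ± 217 CPM per kb, Cd14 at 1456 ± 227 CPM per kb and Cd74 at 9262 ± 692 CPM per kb. Itgam, the CD11b gene of the gate, was at 308, 216, 547 and 419.9 CPM, and Ptprc, the CD45 gene of the bead enrichment, at 618, 623, 629.5 and 685 CPM. Spi1, which encodes the lineage transcription factor PU.1, was at 427, 360.3, 526 and 454 CPM. All 18 genes of the lineage list reached 100 CPM on average, and their sum was 45477 ± 1688 CPM, 4.55% of all counts, with 46501, 43754, 44362 and 47289.8 CPM in Ct 1 to 4. The highest sum was 1.08 times the lowest. The list includes Cd74 and Lyz2, so it overlaps the classes below.

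A small number of genes took a large share of the counts. The 10 genes with the highest mean CPM took 11%, 12.8%, 9.70% and 10.6% of the counts in Ct 1 to 4 (11 ± 1.28%), the first 100 took 30.8 ± 1.55%, and the first 1000 took 61.1 ± 1.0%. Between them, 484 genes held 50% of the counts. In all, 110 genes had a mean of at least 1000 CPM and 1852 a mean of at least 100 CPM. Ct 2 was at the top of the range for the 10 and for the 100.

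Apoe, which encodes the apolipoprotein E that carries lipids out of Mφ, had the highest mean CPM, with 21544, 23751, 18863 and 22862 CPM. It was followed by Cd74 and by Lyz2, the lysozyme of myeloid cells, with 14587, 14416, 13976 and 13424 CPM. Malat1, a long nuclear RNA, came next only through Ct 2, with 10135, 22370.4, 8192 and 8438 CPM, and its mean was 12284 ± 6779.6 CPM, or 8922 ± 1058 CPM without Ct 2. Ftl1, the light chain of the iron store ferritin, held the place after it with 11950.2, 14131, 10061 and 11263 CPM. None of the libraries stood apart for Apoe, Lyz2 and Ftl1, whose SD was at most 14.4% of the mean.

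Fos, a subunit of the transcription factor AP-1, followed with 10299, 8621, 8969 and 8753 CPM. Sepp1, which encodes the secreted selenium carrier selenoprotein P, held 7397, 7886, 5542 and 7576 CPM, lowest in Ct 3. Dusp1, a phosphatase that switches off MAP kinases, held 6729, 6698, 6244 and 5662 CPM. After these came Serinc3, a membrane protein (6140.2 ± 806 CPM), Tmsb4x, which binds monomeric actin (5985 ± 1933 CPM), Fth1, the ferritin heavy chain (5580.3 ± 571 CPM), and Zfp36, which destabilises cytokine mRNA (5484 ± 425 CPM). Ctsb, a cathepsin, was at 5464 ± 419.8 CPM, Itm2b at 5009 ± 584 CPM, C1qb at 4918 ± 696 CPM, H2-Ab1 at 4616 ± 651 CPM, C1qc at 4400.4 ± 485 CPM, Jun at 4392 ± 744 CPM and Ctsc at 4330.2 ± 1169.5 CPM. The last 11 of the 30 were Rn45s, Junb, Csf1r, Egr1, H2-Aa, F13a1, Ccl6, B2m, Hspa1a, H2-Eb1 and Actg1, whose means lay between 2914 and 4247 CPM. The mean of Rn45s was 4247 ± 3639.5 CPM, or 2432 ± 321 CPM without Ct 2. Of the 30 genes, 6 belong to the immediate early genes, 4 to MHC class II presentation, 2 to complement, 2 to iron handling, 2 to the cathepsins, 2 to the cytoskeleton and 4 to no list.

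**Figure D2:**
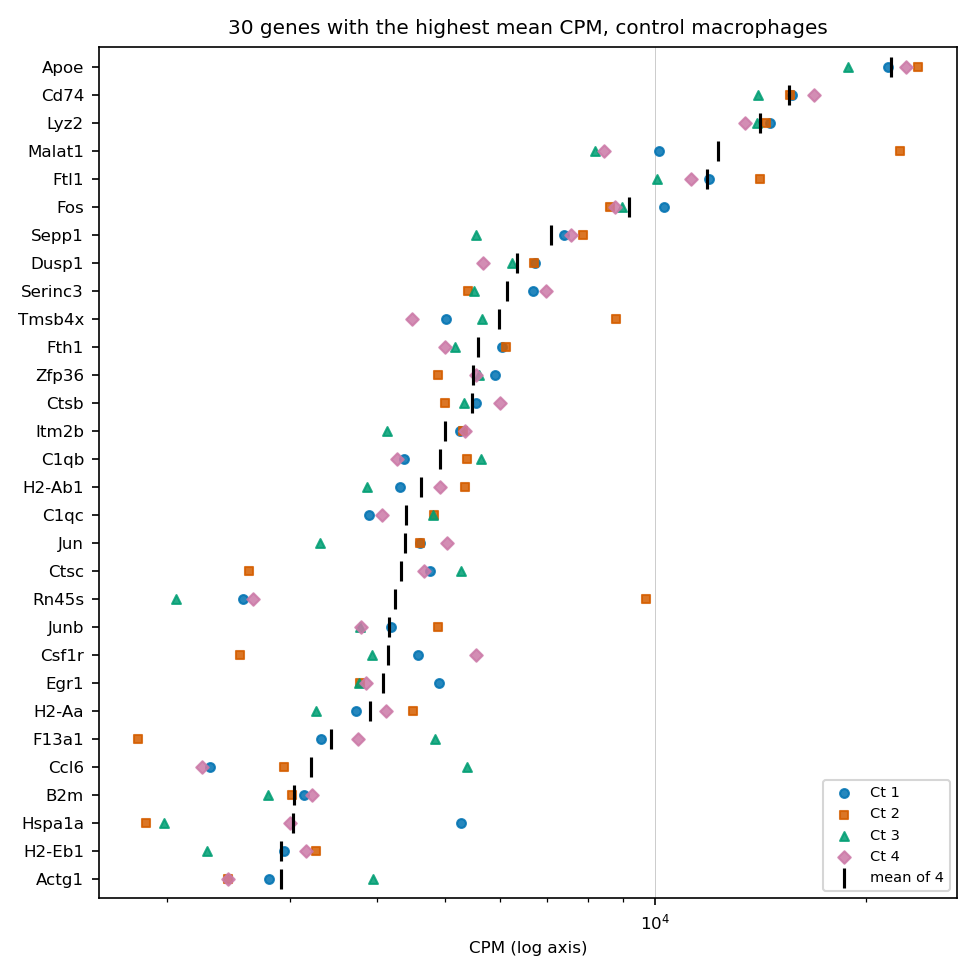
CPM of the 30 genes with the highest mean in each Ct library (points, log axis) with the mean of the 4 libraries (black tick). Rn45s and Malat1 in Ct 2, Ccl6 in Ct 3 and Hspa1a in Ct 1 lie farthest to the right of the other libraries, while Apoe, Cd74 and Lyz2 lie close together.

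CPM rises with transcript length, so levels were compared between genes as CPM per kb of merged exons. On this scale Lyz2 was highest with 10715 ± 395 CPM per kb, ahead of Apoe with 10175 ± 996 CPM per kb, Cd74 with 9262 ± 692 CPM per kb and Ftl1 with 8844 ± 1275 CPM per kb. Their ranges over libraries overlapped from each gene to the next. Within a library, Lyz2 was above Apoe in 2 of 4, Apoe above Cd74 in 4 of 4 and Cd74 above Ftl1 in 3 of 4. Ftl1 was above C1qb (4521 ± 640.2 CPM per kb) in every library without overlap. C1qb was followed by Tmsb4x (4366 ± 1410 CPM per kb), Fos (3895 ± 328 CPM per kb) and B2m, the light chain of MHC class I (3541 ± 221 CPM per kb), and B2m stood above Sepp1 (2498 ± 372 CPM per kb) without overlap. After it came C1qa (2447 ± 428 CPM per kb). Over the first 30 genes, 27 of 29 neighbouring pairs overlapped. The 30 genes on this scale and the 30 by CPM had 20 in common. Reads of Lyz2 and Lyz1, of Ftl1 and its pseudogene copies, of Hspa1a and Hspa1b and of the H2 genes share long stretches of sequence, and how reads with several matches were counted was not stated, so the split among these copies is uncertain. Lyz2 per kb was 4.54, 5.45, 8.15 and 5.52 times Lyz1 in Ct 1 to 4.

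Promoters of 7 genes from the classes described next are shown to let a reader compare them by sequence, namely the immediate early genes Fos and Dusp1, the complement genes C1qb and C1qc, the MHC class II genes H2-Aa and H2-Eb1, and Hsph1, the most variable chaperone. They run 5′ to 3′ on the strand of the gene from 250 bases before to 50 bases from the start, in RefSeq on GRCm38.p6. No promoter of C1qa or H2-Ab1 is shown. Capitals mark TGACGT, the core bound by CREB and ATF proteins, in Fos and Dusp1, GAGGAA, a core bound by PU.1, in C1qb and C1qc, CTGATTGG, which holds the Y box of class II promoters, in H2-Aa and H2-Eb1, and TTCNNGAA, a pair of heat shock units, in Hsph1. Each promoter was marked only for the motif named for it. Matches to the other motifs stay in lower case, such as tgacgtca in H2-Aa, gaggaa in Dusp1 and ttctggaa in C1qc. Both strands were searched, so the capitals may read as the reverse complement, and a match is a description of the letters only. The Fos promoter lies at chr12:85473640-85473939, plus strand, that of Dusp1 at chr17:26508423-26508722, minus strand, C1qb at chr4:136886151-136886450, minus strand, C1qc at chr4:136892865-136893164, minus strand, H2-Aa at chr17:34287774-34288073, minus strand, H2-Eb1 at chr17:34305617-34305916, plus strand, and Hsph1 at chr5:149636287-149636586, minus strand, the first of its 2 listed starts.
Fos: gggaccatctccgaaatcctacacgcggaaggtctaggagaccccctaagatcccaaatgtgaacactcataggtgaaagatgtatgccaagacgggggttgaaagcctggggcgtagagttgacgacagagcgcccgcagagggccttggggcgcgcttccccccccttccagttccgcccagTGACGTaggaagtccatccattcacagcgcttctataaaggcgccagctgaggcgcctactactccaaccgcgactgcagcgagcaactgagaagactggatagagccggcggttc
Dusp1: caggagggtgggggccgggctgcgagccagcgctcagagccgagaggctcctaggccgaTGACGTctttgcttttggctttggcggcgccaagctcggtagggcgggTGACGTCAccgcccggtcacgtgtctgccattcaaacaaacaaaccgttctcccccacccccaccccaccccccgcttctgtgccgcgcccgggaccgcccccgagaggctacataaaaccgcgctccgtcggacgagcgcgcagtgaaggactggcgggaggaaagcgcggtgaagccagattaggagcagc
C1qb: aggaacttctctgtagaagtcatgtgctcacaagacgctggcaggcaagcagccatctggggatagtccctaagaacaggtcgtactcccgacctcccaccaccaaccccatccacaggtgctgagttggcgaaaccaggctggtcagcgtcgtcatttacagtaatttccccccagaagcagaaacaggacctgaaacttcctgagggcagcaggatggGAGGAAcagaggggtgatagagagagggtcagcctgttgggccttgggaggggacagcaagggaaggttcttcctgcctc
C1qc: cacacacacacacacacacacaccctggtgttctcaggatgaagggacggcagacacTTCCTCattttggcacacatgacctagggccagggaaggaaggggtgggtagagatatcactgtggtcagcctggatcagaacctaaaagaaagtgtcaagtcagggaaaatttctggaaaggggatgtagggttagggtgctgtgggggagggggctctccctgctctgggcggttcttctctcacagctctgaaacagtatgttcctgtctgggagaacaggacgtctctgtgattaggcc
H2-Aa: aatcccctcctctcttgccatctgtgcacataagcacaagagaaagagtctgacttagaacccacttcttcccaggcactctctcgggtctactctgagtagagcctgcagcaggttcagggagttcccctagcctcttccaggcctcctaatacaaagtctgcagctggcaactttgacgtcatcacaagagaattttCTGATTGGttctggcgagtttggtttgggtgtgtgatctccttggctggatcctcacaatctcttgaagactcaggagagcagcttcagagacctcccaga
H2-Eb1: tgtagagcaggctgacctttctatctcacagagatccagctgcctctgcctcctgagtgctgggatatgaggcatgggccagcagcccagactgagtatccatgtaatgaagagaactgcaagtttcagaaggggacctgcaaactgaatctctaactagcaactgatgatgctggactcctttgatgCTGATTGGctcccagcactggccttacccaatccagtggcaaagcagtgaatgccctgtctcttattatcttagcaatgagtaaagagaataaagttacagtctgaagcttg
Hsph1: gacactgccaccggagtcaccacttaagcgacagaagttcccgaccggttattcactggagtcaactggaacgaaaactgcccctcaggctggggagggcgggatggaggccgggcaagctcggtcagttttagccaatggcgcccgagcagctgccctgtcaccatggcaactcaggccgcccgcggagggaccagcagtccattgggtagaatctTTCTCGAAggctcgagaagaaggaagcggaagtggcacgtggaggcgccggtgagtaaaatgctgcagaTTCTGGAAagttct

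The marked letters begin 66 bases before the start in Fos, 191 and 143 bases before it in Dusp1, 30 in C1qb, 193 in C1qc, 51 in H2-Aa and 62 in H2-Eb1. In Hsph1 they begin 33 bases before and 36 bases after the start. Of 32851 RefSeq promoters of this length, TGACGT is in 7.51%, GAGGAA in 28.3%, CTGATTGG in 4.10% and TTCNNGAA in 8.52%. Counted by gene, TGACGT is in 7 of 23 immediate early genes with a listed promoter and in 8.37% of all 27025 genes, CTGATTGG in 4 of 11 class II genes and 4.70% of all genes, TTCNNGAA in 4 of 12 chaperone genes and 9.60% of all genes, and GAGGAA in 8 of 17 complement genes and 31.3% of all genes. Other classes hold some of these letters as well. CTGATTGG is in 4 of 12 chaperone and 2 of 23 immediate early genes, but in 0 of 17 complement genes. GAGGAA is in 7 of 11 lineage genes and 6 of 12 cathepsin genes. It is also in 4 of 12 chaperone, 6 of 23 immediate early and 3 of 11 class II genes.

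Immediate early genes took the largest share of counts of the 36 classes, 5.17%, with 56642, 53830.1, 48431 and 48075 CPM in Ct 1 to 4. Of the 28 members, 27 reached 1 CPM in every library and 14 a mean of 1000 CPM. Zfp36 stood at 5899, 4891, 5602 and 5546 CPM, Jun at 4603, 4601, 3320.4 and 5044 CPM and Junb at 4193, 4892, 3779 and 3797 CPM. Egr1, a zinc finger transcription factor, stood at 4901, 3778, 3774 and 3858 CPM, above the others in Ct 1. Klf6 was at 2890.2, 2670.4, 2311 and 2473 CPM. The class was present at a like level in every library, since its highest sum was 1.18 times its lowest. The members had a median SD of 0.30 (log2), beside 0.28 for all genes of 100 to 1000 CPM and 0.26 for those above. The cells were read after digestion, bead enrichment and sorting, and the part of this handling in the level was not tested.

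MHC class II presentation took 3.03% of counts, 30098, 32198, 26612 and 32360.5 CPM. H2-Ab1, a β chain, stood at 4320.2, 5352, 3874 and 4919.8 CPM, H2-Aa, its α chain, at 3729.6, 4507, 3275 and 4119.8 CPM, and H2-Eb1 at 2943, 3271, 2286 and 3164 CPM. The 3 chains moved together over libraries, with Ct 3 lowest and Ct 2 highest. Per kb, H2-Ab1 was 1.71, 1.76, 1.75 and 1.77 times H2-Aa in Ct 1 to 4, although the level of H2-Ab1 itself ranged over 1.38-fold. Of the 15 members at a mean of 1 CPM or more, 11 were lowest in Ct 3, or 73.3%, beside 26.3% of all genes. Ctss, the protease that trims the invariant chain, was at 2050.2, 2088, 1945 and 1830.2 CPM with little spread. MHC class I presentation was at 9043 ± 415 CPM in sum, led by B2m with 3141, 3019, 2791 and 3229 CPM. H2-Q6 and H2-Q7 had no count in any library, but they are near-identical copies and their reads could have been set aside in counting.

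Complement genes summed to 15961, 17394, 21413 and 17187 CPM, 1.8% of counts. C1qa stood at 2139, 3117, 2672 and 2251 CPM, C1qb at 4367, 5386, 5642 and 4279 CPM and C1qc at 3902, 4818, 4814 and 4067 CPM. The 3 genes encode the chains of C1q, which opens the classical pathway. Per kb, C1qb was 1.99, 1.98, 2.08 and 1.87 times C1qc in Ct 1 to 4, a 1.11-fold range. It was 1.95, 1.65, 2.02 and 1.82 times C1qa, a 1.22-fold range, while the level of C1qb itself ranged over 1.32-fold. Cfd had no count in any library, and Cfi, Hc (the C5 gene) and Cd59a stayed under 1 CPM in all.

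Lipid handling genes took 2.6% of counts, most of it Apoe. Pltp, which transfers phospholipids among lipoproteins, was at 1104, 757, 1236 and 1366 CPM, and Cd36, a receptor for oxidised lipoproteins, at 941, 533, 649 and 840.1 CPM. Both were lowest in Ct 2. Iron and heme genes took 2.39%, led by Ftl1, Fth1 with 6033, 6108, 5176 and 5005 CPM, and Trf, the plasma iron carrier transferrin, with 2517, 1892, 2487 and 2795 CPM. Ftl1 per kb was 5.13, 5.99, 5.03 and 5.83 times Fth1. Hmox1, which breaks down heme, was at 879, 668, 486 and 483 CPM, so Ct 1 and Ct 2 were above Ct 3 and Ct 4. Hpx and Hamp stayed under 1 CPM in every library.

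Degradation was represented by 2 classes. Cathepsins and their inhibitors took 1.94%, 19718, 18317, 19416 and 20253 CPM, with Ctsb at 5534, 4999.8, 5322 and 6001 CPM, Ctsc at 4757, 2623, 5275 and 4666 CPM and Cst3, the inhibitor cystatin C, at 2507, 3574, 2279 and 2633 CPM. Ctsc was lowest in Ct 2 and Cst3 highest there. Ctsg was listed at 0 and Ctsk stayed under 1 CPM. Lysosomal membrane proteins and hydrolases took 1.86%. Grn, the precursor of lysosomal granulins, was at 2276, 1897, 1968 and 2485 CPM, Laptm5 at 2136, 1641, 2261 and 2128 CPM, Psap, which yields the activators of lipid hydrolases, at 2494, 1252, 2164 and 2228 CPM, and Lamp1, a major membrane glycoprotein, at 1406, 1399, 1484 and 1605 CPM. Of 32 lysosomal members at a mean of 1 CPM or more, 19 were lowest in Ct 2, or 59.4% beside 39.7% of all genes. Atp6v0c, a subunit of the proton pump, was under 1 CPM in all libraries, and this gene has many pseudogene copies.

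Genes of Mφ that reside in the heart were read beside genes of recruited monocytes, as sums that are not corrected for length. The 16 resident genes all reached 100 CPM on average and summed to 19806, 20321, 21691 and 21711 CPM, 2.09% of counts. Sepp1, with 7100 ± 1058 CPM, was the largest part of the sum. F13a1, a clotting factor chain, held 3321, 1818, 4844 and 3755 CPM, Pf4, a chemokine also of platelets, 1489, 2499, 1535 and 1426 CPM, Mrc1, the mannose receptor, 1467, 1438, 1469 and 1809 CPM, and Cd163, the haptoglobin-hemoglobin receptor, 1185, 1014, 867 and 1513 CPM. Ct 2 was lowest for F13a1 and highest for Pf4. Gas6, a bridge to dying cells, was at 868, 745, 1007 and 994 CPM, and Igf1, a growth factor, at 350.3, 269.5, 247 and 376 CPM. Lyve1 and Timd4, both named because they are common markers of the resident cells and outside the naming rule, were at 598, 621, 1617 and 669 CPM and 111, 177, 222 and 149 CPM. Lyve1 in Ct 3 was 2.42 times the next library. Of the 16 genes, 10 were highest in Ct 3 (62.5%), beside 21.2% of all genes.

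The 16 monocyte genes summed to 822, 792, 1188 and 757 CPM, 0.089% of counts, with Ct 3 above the others. Ccr2, the receptor that draws monocytes into tissue, was at 303, 183, 469.9 and 314 CPM. S100a4, a calcium-binding protein, was at 97.7, 96.2, 199.7 and 64.1 CPM, Fn1, fibronectin, at 90.2, 70.2, 148 and 91.6 CPM, and Thbs1, thrombospondin, at 91.3, 91.7, 50.7 and 55.4 CPM. Ccr2 and S100a4 were highest in Ct 3, where Ccr2 was 2.56 times its level in Ct 2. Cx3cr1, the receptor of fractalkine, was at 203, 157, 215 and 247 CPM and Cx3cl1, its ligand, at 1.92, 0, 1.16 and 1.30 CPM. No count of Cx3cl1 was found in Ct 2. Counting error at that depth gives an upper limit of 0.034 CPM, but Cx3cl1 is one of the 127 genes absent from Ct 2, some of them far more abundant elsewhere.

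Toll-like receptors and adaptors summed to 5428 ± 371 CPM, with Tlr2 at 490.3, 253, 367 and 383 CPM and Tlr7 at 211, 158, 162 and 234 CPM. Fc receptors summed to 5396 ± 409 CPM. Fcgr3, an activating receptor, stood at 1600.2, 1498, 1428 and 1447 CPM, Fcgr2b, the inhibitory receptor, at 962, 779, 1192 and 903 CPM, and Fcer1g, the signalling chain, at 1293, 1498, 1445 and 1227 CPM. Per kb, Fcgr3 was 5.55, 6.41, 3.99 and 5.34 times Fcgr2b, so the ratio was lowest in Ct 3. Efferocytosis genes summed to 7717 ± 563 CPM. Mertk, a receptor for dying cells, was at 121, 73.9, 92.9 and 185 CPM, and without Ct 2 its mean was 133 ± 47.3 CPM. Adgrb1 and Tyro3 stayed under 1 CPM.

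Among signalling genes, chemokines spread more than most. CC chemokines summed to 7110, 9139.9, 12131 and 6538 CPM, a 1.86-fold range. Ccl6 was at 2307, 2949.5, 5387 and 2245 CPM and Ccl9 at 927, 929, 2080.3 and 828 CPM, both highest in Ct 3. Ccl3 and Ccl4, which attract leukocytes, were at 916, 1298, 794 and 938 CPM and 1018, 1380, 887 and 703 CPM, both highest in Ct 2. Cxcl2, which attracts neutrophils, was at 1262, 1395, 1531 and 735 CPM. Cxcl16, a membrane chemokine, had 416, 392, 411 and 406 CPM and was among the 10 least variable genes of at least 50 CPM, whereas Cxcl10, an interferon-induced chemokine, had 92.6, 84.1, 42.4 and 13 CPM and was among the 10 most variable.

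Cytokines summed to 2451, 2374, 2466 and 1513 CPM, lowest in Ct 4. Il1b was at 1353, 1313, 1303 and 699 CPM, and Tnf at 141, 132, 98.4 and 82.6 CPM, and both were lowest in Ct 4. Il33 and Lif stayed under 1 CPM in every library. Cytokine receptors, which include Csf1r, summed to 9361 ± 1929 CPM, with 18 of 25 members lowest in Ct 2 (72%), beside 39.7% of all genes. Il4ra, the receptor for IL-4 and IL-13, was at 181, 131, 270.1 and 177 CPM. The alternative activation genes summed to 5661 ± 389 CPM, with Retnla at 600.3, 1158, 938 and 692 CPM and Mgl2 at 589, 501, 1090 and 584 CPM. NF-κB genes summed to 4255, 4218, 3628 and 3045 CPM, and the inhibitor Nfkbia held 1152, 1631, 912 and 708 CPM and Nfkbiz 1549, 1263, 1258 and 1076 CPM. Both were lowest in Ct 4, as were the sums of cytokines and CXC chemokines.

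Because the treated groups of the study received a β-adrenergic agonist, genes of this pathway were read in the Ct libraries. Adrb1, which encodes a receptor of the pathway and was named after its values were seen, was at 12.3, 32, 14.9 and 19.4 CPM, and Adrb3 had no count. Gnai2, an inhibitory G protein subunit, was at 706, 768, 851 and 785 CPM. The 24 genes of this pathway summed to 4125 ± 279.8 CPM, and 22 of them reached 1 CPM in every library.

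Transcription factors of the lineage summed to 12803 ± 1046 CPM. Klf2 was at 1852, 2048, 1691 and 1421 CPM and Cebpb at 1148, 1332, 1064 and 762 CPM. Gata6, of peritoneal Mφ, and Sall1, of microglia, stayed under 1 CPM in all libraries. Interferon-stimulated genes summed to 2836 ± 534 CPM, led by Ifitm3 with 710.2, 779.8, 1338 and 764 CPM. Growth factors summed to 733 ± 99.2 CPM, and Ereg was listed at 0. Proliferation genes summed to 667 ± 92.2 CPM, with Pcna, the replication clamp, at 124, 144, 104 and 99.7 CPM and Stmn1 at 52.6, 101, 26.3 and 43.2 CPM. Matrix metalloproteinases and ADAMs summed to 2527 ± 469.7 CPM. Timp2, an inhibitor of these proteases, was at 1095, 845, 1327 and 1296 CPM, Adam10, a membrane sheddase, at 138, 97.1, 192 and 175 CPM, and Adam8 at 39.5, 38.9, 37.6 and 33.4 CPM. Oxidative defence genes summed to 7514 ± 666 CPM, with Gpx1 at 1428, 2174, 2370.2 and 1376 CPM and Cybb, the oxidase that makes superoxide, at 1186, 921, 784 and 1256 CPM.

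**Figure D3:**
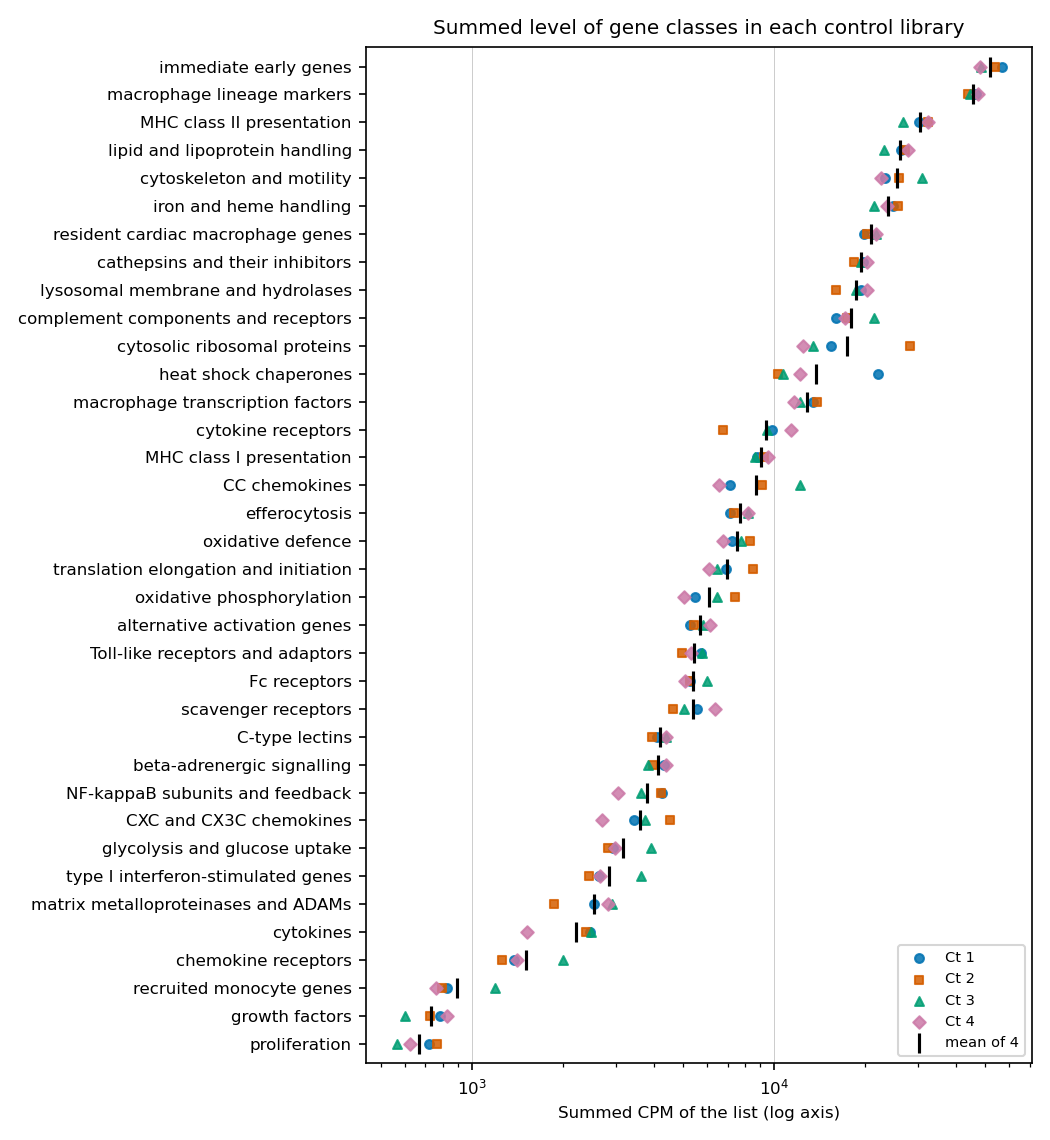
Summed CPM of the 36 gene classes in each Ct library (points, log axis) with the mean of the 4 libraries (black tick). The sums are shares of the counts and were not divided by transcript length, and a gene can belong to several classes. Ribosomal protein genes in Ct 2 (28164 CPM) and heat shock chaperones in Ct 1 (22027 CPM) stand farthest from the other libraries.

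Ct 2 was above the other libraries in ribosomal protein genes. Cytosolic ribosomal protein genes summed to 15358, 28164, 13471 and 12439.9 CPM in Ct 1 to 4, 17358 ± 7305 CPM on average and 13756 ± 1480.1 CPM without Ct 2. All 77 members at a mean of 1 CPM or more were highest in Ct 2, where 34.0% of all genes had their highest value. Rps29 was at 399, 879, 366 and 349.5 CPM and Rpl13, the reference gene of the qPCR of the study, at 481, 900.5, 447 and 417 CPM. In both genes Ct 2 was at least 1.87 times the next library. After removal of a length trend the median SD of the class was 0.37 instead of 0.52 (log2), beside 0.24 for all genes of 100 to 1000 CPM treated alike, and the part of length in the high values of Ct 2 was not tested. Rpl26 was listed at 0 and Rpl30 at under 1 CPM in every library. Ribosomal proteins have many pseudogenes, so these levels are uncertain.

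Oxidative phosphorylation genes, which are nuclear, summed to 5478, 7424, 6469 and 5035 CPM, and 29 of 40 were highest in Ct 2 (72.5%, beside 34.0% of all genes). With the length trend removed their median SD was 0.22 instead of 0.32 (log2), and the part of length in these high values was not tested. Glycolysis and glucose uptake summed to 2929, 2817, 3899 and 2967 CPM, with 15 of 25 highest in Ct 3 (60%, beside 21.2% of all genes). Among them was Gapdh with 501, 402, 728 and 453 CPM. The genes of the cytoskeleton summed to 23242, 25797, 30814 and 22477 CPM, and 23 of 30 were highest in Ct 3 (76.7%), beside 21.2% of all genes. Actb was at 1708, 2478, 2729.7 and 1832 CPM, Actg1 at 2800.4, 2449.7, 3953 and 2451 CPM and Lcp1, which bundles actin in leukocytes, at 2086, 1097, 2654 and 2249.8 CPM. Tmsb4x, a short transcript, was highest in Ct 2, with 5014, 8797, 5644 and 4487 CPM. Mitochondrially encoded genes were not analysed here.

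Heat shock chaperones separated Ct 1 from the rest. Their sum was 22027, 10261, 10672 and 12208 CPM, and 14 of 17 members were highest in Ct 1, or 82.4% beside 16.8% of all genes. Hspa1a was at 5273, 1869, 1986 and 3003 CPM and its near-identical copy Hspa1b at 5776, 1467, 1292 and 2775 CPM. Hsph1, a nucleotide exchange factor for these chaperones, was at 139, 16.7, 28.6 and 26.6 CPM. Hspa8, the constitutive member, was at 3722, 2094, 2863 and 2349 CPM, and Hspa5, of the endoplasmic reticulum, at 1510.5, 1122, 1206 and 981 CPM. Hsph1 in Ct 1 was 4.85 times the next library, whereas the range of Hspa8 and Hspa5 was at most 1.78-fold. The sum of immediate early genes in Ct 1 was 1.05 times that in Ct 2, and of their 27 members 14 were highest in Ct 2 (51.9%, beside 34.0% of all genes) and 9 in Ct 1 (33.3%, beside 16.8%).

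**Figure D4:**
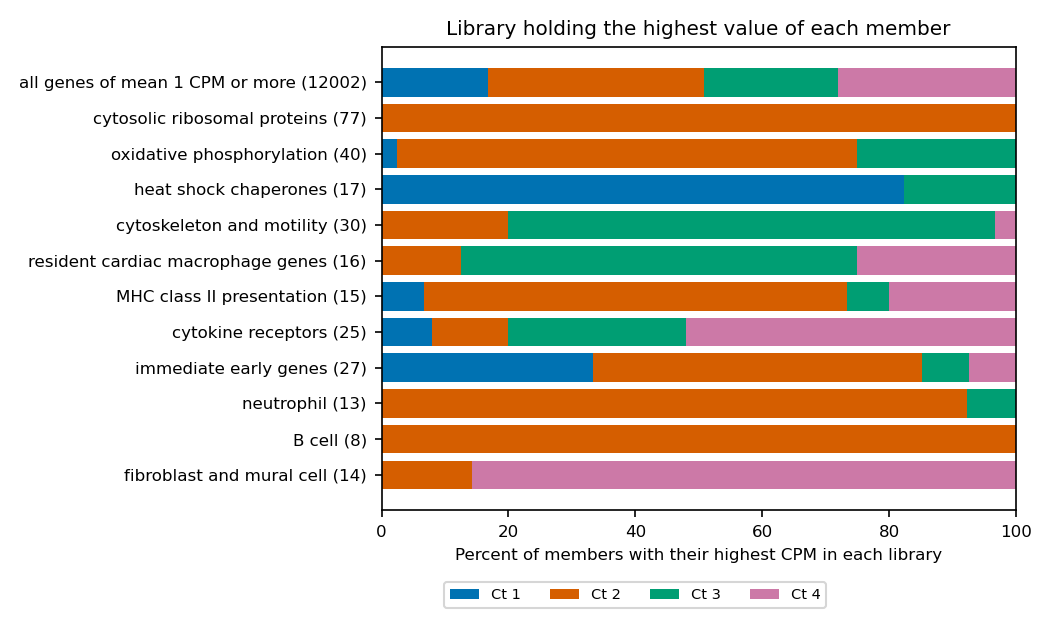
Percent of the members of each list (horizontal axis) whose highest CPM lay in Ct 1, 2, 3 or 4 (colours), with the number of members at a mean of 1 CPM or more in brackets and all 12002 such genes in the top bar. Ribosomal protein genes and B cell genes are all highest in Ct 2, 82.4% of the heat shock chaperones in Ct 1 and 76.7% of the cytoskeleton genes in Ct 3.

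Markers of other cells were read because the sort could hold such cells or their RNA. Neutrophil genes summed to 849, 2065, 1401 and 498 CPM, a 4.14-fold range. S100a9 and S100a8, which form calprotectin, were at 229, 715, 531 and 96.7 CPM and 157, 461, 333 and 67.2 CPM, Retnlg at 39, 161, 91.5 and 28.5 CPM, Ngp at 68.3, 74.4, 49.8 and 12.5 CPM and Il1r2, a decoy receptor, at 62.3, 208, 48.5 and 28.7 CPM. Ct 4 was lowest and Ct 2 highest for each of the 5, while Ct 3 was above Ct 1 for S100a9, S100a8 and Retnlg and below it for Ngp and Il1r2. Per kb, S100a9 was 1.94, 2.06, 2.12 and 1.91 times S100a8, while S100a9 itself ranged over 7.40-fold. Of 13 members at a mean of 1 CPM or more, 12 were highest in Ct 2 (92.3%, beside 34.0% of all genes) and 12 lowest in Ct 4 (92.3%, beside 17.2%). Csf3r, which monocytes also express, stayed between 123 and 150 CPM. Elane was listed at 0 and Mpo stayed under 1 CPM.

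B cell genes summed to 218, 583, 125 and 322 CPM, and all 8 members at a mean of 1 CPM or more were highest in Ct 2 and lowest in Ct 3, beside 34.0% and 26.3% of all genes. Cd79a and Cd79b, the signalling chains of the B cell receptor, were at 62.7, 173, 32.3 and 89.6 CPM and 42.3, 116, 29.2 and 57.2 CPM. The order of the libraries was the same for both genes, Ct 2, then Ct 4, Ct 1 and Ct 3. Pax5 stayed under 1 CPM. T and NK cell genes summed to 74, 169, 46 and 127 CPM, with Lck at 6.86, 29.7, 3.33 and 16.4 CPM and Nkg7 at 9.61, 23.6, 4.48 and 10.1 CPM, both highest in Ct 2 and lowest in Ct 3. The other 2 of the 4 leading members were highest in Ct 4, and of 15 members at a mean of 1 CPM or more 8 were highest in Ct 2 (53.3%, beside 34.0% of all genes), 6 in Ct 4 (40%, beside 28.0%) and 10 lowest in Ct 3 (66.7%, beside 26.3%). Immunoglobulin constant regions were not analysed here.

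Fibroblast and mural cell genes summed to 313, 340.1, 589 and 873 CPM, and 12 of 14 members at a mean of 1 CPM or more were highest in Ct 4 (85.7%), beside 28.0% of all genes. Gsn, which cuts actin filaments and is also made by other cells, accounted for most of the sum with 272, 295, 474 and 651 CPM. Dcn, the matrix proteoglycan decorin, was at 21.1, 28.4, 67.8 and 137 CPM, Col3a1 at 1.46, 0.317, 14.6 and 17.8 CPM and Col1a2 at 2.30, 1.76, 8.57 and 16.3 CPM. Each of the 3 matrix genes was highest in Ct 4. Myh11 was listed at 0.

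Cardiomyocyte genes summed to 417, 414, 304 and 334 CPM. Atp2a2, a calcium pump that other cells also express, was at 138, 67.1, 170.4 and 154 CPM, while the restricted genes Actc1, Mb and Tnnt2 were at 45.7, 51.8, 14.9 and 31.2 CPM, 35.7, 36.9, 23.2 and 28.5 CPM and 33.6, 43.4, 15.1 and 20.3 CPM. Each of these 3 was highest in Ct 2 and lowest in Ct 3. Myh7, Nppa and Nppb stayed under 1 CPM. Endothelial genes summed to 122, 81.9, 85.4 and 123 CPM, with Fabp4 at 50.9, 43.8, 27 and 36.8 CPM, Eng at 27, 13.6, 30.8 and 30.1 CPM and Pecam1 at 7.59, 2.72, 2.79 and 14.6 CPM. Plvap and Robo4 stayed under 1 CPM. Dendritic cell genes summed to 344, 414, 277 and 398 CPM, with Ccr7 at 85.1, 159, 47.5 and 125 CPM. Mast cell and basophil genes summed to 57.7, 112, 62.8 and 26 CPM, where Hdc, which makes histamine, was at 38.5, 76.2, 42.2 and 16.7 CPM and Tpsb2 at 3.63, 11.1, 2.10 and 0 CPM. Erythroid and platelet genes summed to 9.33 to 18.3 CPM, almost all of it Ppbp, and the globin genes Hba-a1, Hba-a2, Hbb-bs and Hbb-bt were listed at 0, but as near-identical copies their reads could have been set aside in counting. The part of other cells in the levels of the Mφ genes was not tested.

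The spread between libraries fell with the level. The median SD of log2(CPM + 0.5) was 0.71 for 3370 genes with means of 1 to 10 CPM, 0.34 for 6780 genes of 10 to 100 CPM, 0.28 for 1742 genes of 100 to 1000 CPM and 0.26 for 110 genes above. Without Ct 2 these medians were 0.46, 0.23, 0.19 and 0.18. Over all 12002 genes the median was 0.39. The medians of lineage markers (0.26), Fc receptors (0.25), MHC class II (0.23) and cathepsins (0.26) lay near those of all genes of 100 CPM or more. They were 0.67 for CXC chemokines, 0.61 for heat shock chaperones, 1.16 for neutrophil genes and 1.20 for fibroblast genes. Many members of these lists were less abundant. A mean of 100 CPM was reached by 4 of 11 CXC, 11 of 17 chaperone, 3 of 13 neutrophil and 1 of 14 fibroblast genes. Of the fibroblast genes 2 reached 10 CPM, so their median is better set beside the 0.71 of genes of 1 to 10 CPM. The biological coefficient of variation, estimated by edgeR over 12042 genes as a common value, was 41.4%, and 33.4% without Ct 2.

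The 10 genes of at least 50 CPM with the largest SD were Lars2, Cxcl10, S100a9, Hsph1, Dcn, Il1r2, Ngp, Rn4.5s, S100a8 and Retnlg. Lars2, the mitochondrial leucyl-tRNA synthetase, was at 302, 2052, 243 and 208 CPM, Rn45s, the precursor of ribosomal RNA, at 2572, 9692, 2065 and 2659 CPM, and Rn4.5s at 51.7, 182, 24.7 and 51.4 CPM. These 3 and Malat1 were highest in Ct 2. Of the 10 genes, 7 were highest in Ct 2, 2 in Ct 1 and 1 in Ct 4, whereas of the 100 most variable genes 45 were highest in Ct 2, 30 in Ct 3 and 22 in Ct 4, and 44 were lowest in Ct 2. Over all genes 34.0% were highest and 39.7% lowest in Ct 2. Rn4.5s had no annotated length, and with the length trend removed 6 of the other 9 were again among the 10 most variable, and 6 of the 10 without Ct 2. At the other end, Ubxn4, which acts in the degradation of misfolded proteins of the endoplasmic reticulum, was at 82.7, 80.9, 80.6 and 82.9 CPM, Laptm4a, a lysosomal membrane protein, at 468, 469.7, 479 and 462 CPM, Sfr1 at 98.6, 99.2, 99.6 and 102 CPM, Cyth1 at 104, 102, 104 and 100.2 CPM and Foxp1, a transcription factor, at 183, 195, 188 and 190.1 CPM. The other 5 of the least variable were Rtfdc1, Prkab1, Ppp2r2a, Cxcl16 and Dus3l.

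**Figure D5:**
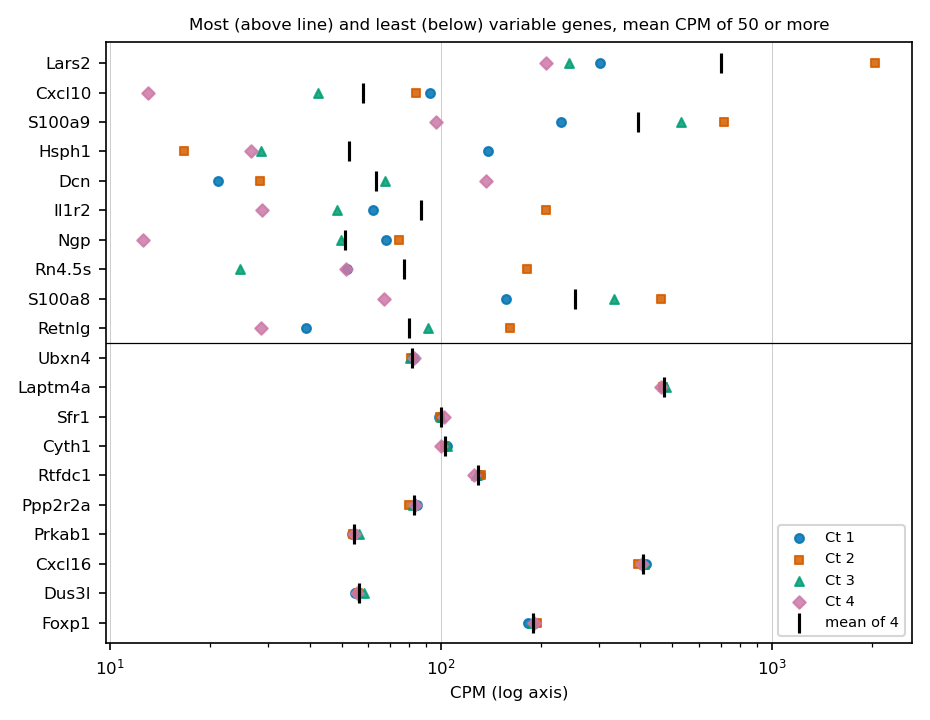
CPM in each Ct library (points, log axis) of the 10 most variable genes (above the line) and the 10 least variable genes (below it) with a mean of at least 50 CPM, with the mean of the 4 libraries (black tick). Lars2 runs from 208 to 2052 CPM, whereas Laptm4a runs from 462 to 479 CPM.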

How the data were processed

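RNA of sorted CD14+/CD64+ cardiac Mφ was analysed for the 4 Ct mice, 1 library per mouse, grouped by the treatment in their labels. Reads were trimmed (Trimmomatic) and aligned to mm10 (TopHat2) by the authors, who deposited the featureCounts output as whole-number counts per gene symbol without normalization. Software versions, gene models, strand and the handling of reads with several matches were not stated in the sources read. Without molecular identifiers, the limit for a count of 0 (3 counts) describes counting error alone. In every library more genes held 2 counts than 1 or 3 (322 against 207 and 125 in Ct 2), so the counts are not all independent fragments. No pair of libraries agreed within sampling noise.

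Counts were scaled to CPM, and spread was taken as the SD of log2(CPM + 0.5). Exon and transcript lengths came from GENCODE M21 (GRCm38) for 24035 of 24445 symbols, 567 of them by synonyms, and promoters from RefSeq. Dispersion was estimated with edgeR 4.0.16 (TMM scaling, intercept only) and DESeq2 1.42.0 in R 4.3.3, and other values were computed in Python 3.11.15. The code was tested on simulated data. Named are the markers, the 30 genes with the highest mean CPM and the 10 highest per kb, the first 4 members by CPM and the undetected members of each list, the 10 most and 10 least variable genes of at least 50 CPM, absent genes (up to 3 per library), genes the study names, and Lyve1, Timd4, Adrb1, Itgam, Ptprc and Spi1 outside this rule. The genes and lists were chosen with earlier results of these data known. Some named genes are not reported here. The 8 libraries of treated mice were left out.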

Additional observations from a re-analysis of the deposited data

Results flagged for a closer look

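Single libraries lay far from the other 3 for 16 of the 135 genes whose values were checked and for 4 of 45 class sums. By this measure, in which the gap to the nearest library is set against the whole range, chance alone marks about 1 in 20 groups, but some of the genes, Lars2 and Hsph1 among them, were named for their spread, so the count of genes cannot be read against that rate. Ct 2 was the high library for Malat1 (22370 CPM), Rn45s (9692 CPM), Pf4 (2499 CPM), Rpl13 (900.5 CPM), Rps29 (879 CPM) and Lars2 (2052 CPM). With the length trend removed the SD of log2 values fell from 0.38 to 0.059 for Pf4 and from 0.63 to 0.22 for Rps29, and it was 0.48 instead of 0.51 for Rpl13, 0.76 instead of 0.68 for Malat1 and 1.7 instead of 1.5 for Lars2. In the same library the share of Malat1 and Rn45s together was 3.21% of counts against 1.03% to 1.27% in the others, and 127 genes had no count there although each other library held at least 100 counts.

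Ct 3 was high for Fcgr1 (156 CPM), Lyve1 (1617 CPM), Ccl9 (2080 CPM), Ifitm3 (1338 CPM) and Mgl2 (1090 CPM), and low for Itm2b (4134 CPM). Its sums of recruited monocyte genes (1188 CPM) and of glycolysis genes (3899 CPM) were also high. Ct 1 was high for Egr1 (4901 CPM), Hsph1 (139 CPM) and the sum of heat shock chaperones (22027 CPM). Ct 4 was high for Mrc1 (1809 CPM) and low for Il1b (699 CPM) and for the sum of cytokines (1513 CPM). The part of depth, amplification or cell content in these values was not tested.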

How the results depend on the processing

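Values rest on 4 libraries, and Ct 2 had the most influence. The number of genes at 1 CPM in all libraries was 10616 and ranged from 10620 to 12057 under other scalings and thresholds and from 10689 to 11076 with a library left out. The 10 most abundant genes took 10.5% to 11.5% of counts with a library left out and 11.2% of a total without ribosomal protein genes. Of the 30 genes with the highest mean CPM, 30 remained under TMM or RLE scaling, 28 by the median, 20 per kb and 28 to 29 with a library left out. Per kb, 29 of 30 remained when the longest transcript gave the length. The median SD of log2 values was 0.33 to 0.40 under the other pseudocounts, scalings and filters, 0.37 with the length trend removed, an alternative chosen after Ct 2 was seen, and 0.26 to 0.42 with a library left out, lowest without Ct 2. Summed over the pairs of libraries, 10.4% of gene values differed by more than 2-fold, and 9.90% in genes of middle length, a subset also chosen after Ct 2 was seen. The coefficient of variation of 41.4% became 85.9% with no filter beyond 1 count and 27.3% as the median gene-wise estimate of DESeq2, and 33.4% to 45.8% with a library left out.

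Class sums stayed within 1 SD of their mean under TMM and RLE scaling and with Malat1 and Rn45s taken out of the totals, which was also chosen after Ct 2 was seen. With the 10 most abundant genes taken out of the totals, 11 sums rose by more than 1 SD, because the total was smaller. These were MHC class I (10168 CPM), Fc receptors (6063 CPM), Toll-like receptors (6098 CPM), C-type lectins (4716 CPM), efferocytosis (8669.9 CPM), cathepsins (21829.7 CPM), lysosome (20913 CPM), transcription factors (14401.5 CPM), alternative activation (6361 CPM), β-adrenergic signalling (4637 CPM) and oxidative defence (8451 CPM). Lists that contain any of the 10 were not recomputed in this way. Under TMM and RLE scaling, 0 of the 135 genes whose values are given individually moved by more than 1 SD. With a library left out, class sums came to 0.71 to 1.2 times their value, and 13 of the 135 genes moved by more than 1.5 times, all downwards. These were Rn45s (2432 CPM), Lars2 (251 CPM), Rn4.5s (42.6 CPM), Retnlg (53.0 CPM), Il1r2 (46.5 CPM), Lck (8.85 CPM) and Tpsb2 (1.91 CPM) without Ct 2, Hspa1b (1845 CPM) and Hsph1 (24 CPM) without Ct 1, and Dcn (39.1 CPM), Col3a1 (5.46 CPM), Col1a2 (4.21 CPM) and Pecam1 (4.37 CPM) without Ct 4. No paired analysis was possible because only 1 group is described.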
